A study of Homo sapiens with 2 samples.

Results

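The barcodes described here carried messenger RNA of neural development genes in cultures of human embryonic stem cells, without a high level of CRABP1, which encodes a cytoplasmic retinoic acid binding protein. They were chosen by their counts: at least 500 unique molecular identifiers (UMIs, which count captured RNA molecules), at most 20% UMIs of mitochondrially encoded genes, at least 2 summed UMIs of the 7 marker genes POU3F2, NR2F1, NR2F2, MEIS2, DACH1, STMN2 and ONECUT2, and CRABP1 below 0.6% of UMIs. Of 30687 barcodes with at least 500 UMIs, 380 met the rule, 353 of 16468 in the wild-type (WT) library and 27 of 14219 in the knockout (KO) library. They are called neural-factor barcodes below, after the rule, since 2 UMIs of such genes do not name a cell type.

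The cells came from the established human embryonic stem cell line H1 (WA01), kept in routine culture, in a WT form and a form with homozygous KO of ZNF263, a zinc finger transcription factor, made with Cas9. The study asked how heterogeneous WT and KO populations were. Each genotype was measured in 1 library, by a microwell method in which a bead captures the polyadenylated RNA of a single cell, so nothing here has a replicate check and no test between genotypes was possible. ZNF263 itself had 7 UMIs in the WT and 1 UMI in the KO neural-factor barcodes, and 17 and 8.16 CPM in the remaining barcodes of the same depth. CPM, the level used throughout, is the gene's share of all UMIs on a fixed scale, on which 1 UMI in the KO neural-factor barcodes is 36.2 CPM. Which stretch of the gene was deleted is not given in the sources used here, so these low counts do not check the KO label.

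POU3F2 (BRN2) is a POU homeodomain factor of neural progenitors and neurons, NR2F1 and NR2F2 are the COUP-TF nuclear receptors that pattern the developing forebrain and other tissues, MEIS2 is a TALE homeodomain cofactor, DACH1 is a transcriptional corepressor of eye, limb and brain development, ONECUT2 is a factor of several early neuronal and endodermal lineages, and STMN2 is a microtubule regulator of growing axons. When pluripotent cells leave their state towards neural fates, pluripotency factors fall, SOX2 is kept, and N-cadherin replaces E-cadherin. Most of these 7 genes are also used outside the nervous system.

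In total, 842407 WT barcodes shared 60578040 UMIs and 841049 KO barcodes shared 54559376. Barcodes with at least 500 UMIs held 22.4% and 20.9% of the UMIs. The neural-factor barcodes had a median of 916 UMIs in WT (500 to 6995) and 770 in KO (519 to 3170), against 663 and 657 in the remaining barcodes, since a deeper barcode reaches 2 marker UMIs more easily. Comparisons with the remaining barcodes therefore weighted these to the same spread of UMIs per barcode. Direct comparisons of 2 chosen sets of barcodes, and of KO with WT neural-factor barcodes, used sums without such weighting. The median share of mitochondrially encoded UMIs was 4.84% in WT neural-factor barcodes and 4.38% in their matched remainder, and 4.85% and 5.06% in KO. Of the barcode sequences, 448 reached 500 UMIs in both libraries, among them 16 WT and 0 KO neural-factor barcodes. All intervals are 95% intervals that cover counting error only.

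The share of barcodes that met the rule was 2.15% in WT (353 of 16421 under the mitochondrial limit, exact binomial interval 1.93 to 2.38) and 0.191% in KO (27 of 14169, 0.126 to 0.277), 11.3-fold higher in WT (7.62 to 17.4). Over all of these barcodes the summed level of the 7 markers was 5.27-fold higher in WT (4.78 to 5.82). The rule was written with results of these libraries known, so these values describe the choice. After random thinning of every barcode to 500 UMIs (0 barcodes were too shallow) the shares were 0.859% (0.723 to 1.01) in WT and 0.106% (0.0593 to 0.175) in KO.

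Free RNA can put UMIs of a gene into barcodes whose cell lacks it, and a single profile spread over all barcodes would also give some of them 2 marker UMIs. The summed counts of shallow barcodes (10 to 100 UMIs), called the pooled profile, which hold free RNA and shallow cells alike, were used to set that level. It alone would give at least 2 marker UMIs in 299 WT barcodes, or 1.82%, where 383 (2.33%, 2.11 to 2.57) were seen before the CRABP1 limit. In KO it would give 10.0 barcodes, where 27 were seen. At 3 or more marker UMIs the WT library had 90 barcodes against 33.2 from the pooled profile, and at 4 or more it had 30 against 4.45. In KO, 5 barcodes had 3 or more against 0.226. The excess was small at exactly 2 marker UMIs, where 293 WT barcodes were seen and the pooled profile would give 266. Among WT barcodes of at least 2000 UMIs the observed share, 10.3% (7.80 to 13.2), was under the 13.9% of the pooled profile.

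**Figure D1:**
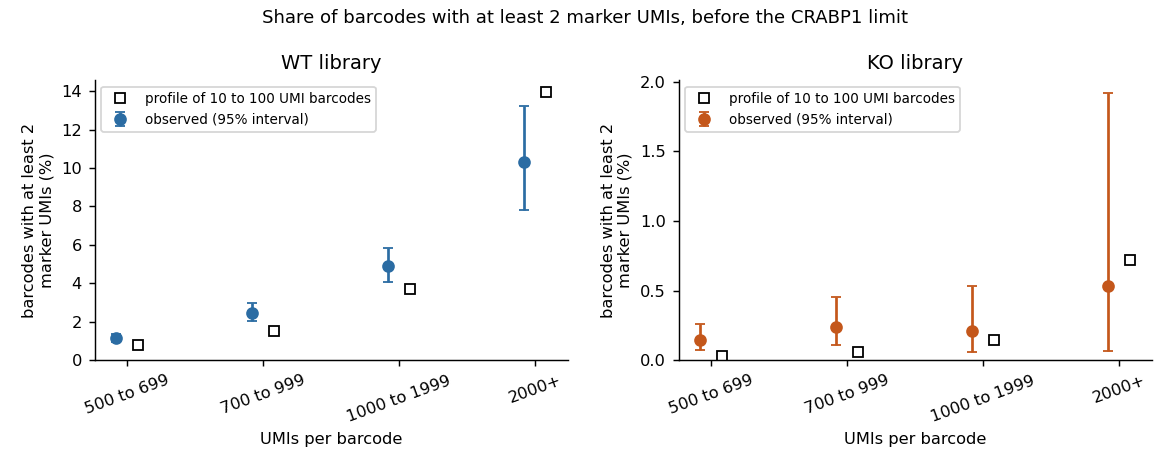
Share of barcodes (vertical axis, %) with at least 2 marker UMIs by range of UMIs per barcode (horizontal axis), before the CRABP1 limit, in the WT library (left) and the KO library (right, another scale). Filled points are observed shares with exact binomial intervals and open squares the share that the pooled profile would give: WT points lie above the squares below 2000 UMIs, and under the square at 2000 UMIs and more, 10.3% against 13.9%.

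Of the factors that define the WT neural-factor barcodes, NR2F1 (chromosome 5, 93583222 to 93594611, GRCh38.p14) gave 195 UMIs in 133 barcodes and POU3F2 (chromosome 6, 98834574 to 98839458) 179 UMIs in 126. STMN2 gave 155 UMIs in 104, NR2F2 91 in 78, MEIS2 88 in 68, DACH1 79 in 68 and ONECUT2 38 in 32. No single gene carried the set: 124 of the 353 had UMIs of 1 marker, 205 of 2 different markers, 21 of 3 and 3 of 4. The 27 KO barcodes had 19 UMIs of NR2F1 in 12 and 15 of STMN2 in 9, but only 4 of POU3F2, 3 of them in 1 barcode. DACH1 gave 8, MEIS2 and NR2F2 6 each and ONECUT2 4 UMIs. These counts come from the rule and test nothing.

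At the edge of the rule, 281 WT barcodes just inside had 2 marker UMIs (median depth 873 UMIs) and 2010 just outside had 1 (median 700.5). In KO the numbers were 22 and 409. On the side of CRABP1, the highest share inside was 0.576% of UMIs and the lowest outside 0.602%, and 30 WT and 0 KO barcodes with 2 or more marker UMIs were left out by that limit. CRABP1 was held down by the rule, yet it stood at 888 CPM in the WT neural-factor barcodes against 504 CPM in the remainder, and at 506 against 268 CPM in KO.

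Whether the markers occur together can be read from each marker in barcodes chosen by the other 6 alone, since the left-out gene took no part in the choice. In WT, all 7 left-out markers were higher there than in the matched remainder. POU3F2 was 2.35-fold higher (1.51 to 3.51, 26 UMIs), NR2F1 2.08-fold (1.34 to 3.12), NR2F2 2.11-fold (1.18 to 3.53), MEIS2 1.99-fold (1.11 to 3.32) and DACH1 3.27-fold (1.98 to 5.14). ONECUT2 was 4.17-fold higher (2.22 to 7.35) on 15 UMIs. Summed over the 7 markers, 147 UMIs were seen where 62.8 would match the remainder, a ratio of 2.34 (1.98 to 2.75). The same barcode can enter this sum through several markers, so its UMIs are not independent, which the interval does not cover. In KO the sum was 11 UMIs against 0.734, and 6 against 0.718 without the deepest barcode, a ratio of 8.36 (3.07 to 18.2). Of these 6 UMIs, 4 came from 1 barcode of 610 UMIs, so the KO ratio rests on very few barcodes.

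STMN2 stood apart. Its ratio of 1.96 (1.26 to 2.94) rested on 2 barcodes with 8 and 5 STMN2 UMIs, and without them it was 1.05 (0.551 to 1.82, 13 UMIs), with an interval that includes 1. Another STMN2-rich barcode had 7 STMN2 UMIs but only 1 UMI of the other markers, so it was not among those chosen by the other 6. ONECUT2 without the 3 STMN2-rich barcodes was 3.37-fold higher (1.66 to 6.25). Each of these 3 barcodes had 1 DACH1 UMI and none of POU3F2, NR2F1, NR2F2 or MEIS2. The barcode with 8 STMN2 UMIs, of 1454 UMIs in all, also had 8 UMIs of the hormone gene SST (somatostatin), 11 of NEFM, a neurofilament subunit, and 4 of GAP43, a growth cone protein, and 5.23% of its UMIs were from neuronal genes, where the median of all WT neural-factor barcodes was 0.678%. The one with 5, of 2813 UMIs, had 7 UMIs of the adhesion molecule NCAM1 and 15 of CRABP1.

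Pairs of markers varied. In the 497 WT barcodes with POU3F2, NR2F2 was 2.14-fold higher (1.35 to 3.26), NR2F1 1.75-fold (1.22 to 2.43), DACH1 2.01-fold (1.20 to 3.18) and MEIS2 1.97-fold (1.21 to 3.05). STMN2 in the same barcodes had a ratio of 0.749 (0.424 to 1.23). In barcodes with NR2F1 and in those with NR2F2, POU3F2 was 2.29-fold (1.65 to 3.10) and 2.27-fold (1.49 to 3.33) higher, but MEIS2 had ratios of 1.30 (0.747 to 2.12) and 0.969 (0.386 to 2.02). STMN2 was higher in the 117 barcodes with ONECUT2, 5.57-fold (3.56 to 8.35), and 2.95-fold (1.51 to 5.21) without the 2 STMN2-rich barcodes among them. In the same 117, NR2F2 was 3.0-fold (1.28 to 6.01), DACH1 2.73-fold (1.09 to 5.73) and POU3F2 2.21-fold (1.05 to 4.10) higher, on 10 UMIs or fewer.

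**Figure D2:**
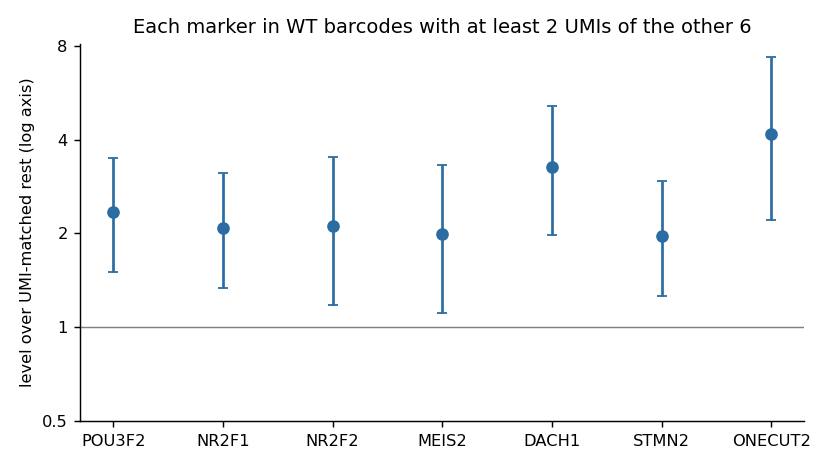
Level of each marker in WT barcodes with at least 2 UMIs of the other 6 markers, over its level in the UMI-matched remainder (vertical axis, log scale; horizontal axis, the left-out marker). Points are ratios of summed UMIs with counting intervals and the grey line marks 1; the ratios run from 1.96 for STMN2 to 4.17 for ONECUT2, and that of STMN2 becomes 1.05 without 2 barcodes.

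Across all other genes, the WT neural-factor barcodes were higher in genes of neural progenitors, cell adhesion and extracellular matrix, and lower in genes of the pluripotent state. Of 6096 genes measured (20 CPM or more on average), 11.1% (679) were at least 1.5-fold higher and 3.97% (242) at least 1.5-fold lower. Scaled by the median ratio of all genes instead of total UMIs, the numbers were 530 and 351. The average is over both groups, so a gene under 20 CPM in the remainder can pass through the neural-factor barcodes, and the reverse. At 20 CPM a gene has about 8.65 UMIs in these barcodes, so the interval of a single ratio is wide there. Among genes of at least 100 CPM the shares were 2.27% and 0.552%. A ratio past 1.5 is a description here and was not tested.

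PRTG (protogenin), a surface receptor of the early neural tube, had the most UMIs of the 10 genes named as highest, which were ranked by the lower end of their interval. It stood at 786 CPM in WT neural-factor barcodes and 312 CPM in the remainder, 2.52-fold higher (2.24 to 2.82), and 49.3% of the barcodes had a PRTG UMI. IGFBP5, which binds insulin-like growth factors, was at 217 against 61.2 CPM, 3.55-fold higher (2.82 to 4.43). COL2A1, the type II collagen of cartilage, notochord and early neuroepithelium, was at 146 against 44.5 CPM, 3.28-fold higher (2.47 to 4.29). With the rule applied after thinning each barcode to 500 UMIs, which left 141 WT barcodes, the log2 ratio of PRTG was 0.71 in place of 1.33, and COL2A1 had 2 UMIs against 3.90 and turned to a log2 ratio of -0.96.

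The receptor of WNT ligands FZD10 had the highest ratio, 39.3 against 6.03 CPM or 6.52-fold (3.58 to 11.2), on 17 UMIs in 15 barcodes. The growth factor NRG1 was 4.49-fold higher (2.47 to 7.73), and the transcription factors RFX4, of the neural tube, and ZFHX3 were 4.27-fold (2.37 to 7.26) and 4.25-fold (2.41 to 7.09) higher. MAP6, which stabilises microtubules, was 3.68-fold higher (2.25 to 5.77), and ZMAT4, a zinc finger gene, 4.02-fold (2.12 to 7.18). In the remainder, FZD10, NRG1, RFX4, ZFHX3, MAP6 and ZMAT4 were at 6.03 to 14.4 CPM. These genes reached the 20 CPM minimum only through their level in the neural-factor barcodes, which favours high ratios. ANXA1, a membrane-binding protein, was 3.59-fold higher (2.41 to 5.20) but had 11 of its 34 UMIs in 1 barcode, and 2.44-fold (1.51 to 3.78) without it. Its log2 ratio of 1.85 was 0.06 and that of FZD10, 2.7, was 0.63 after thinning, on 2 UMIs and 1 UMI. MAP6 went from 1.88 to 1.16 on 3 UMIs and ZMAT4 from 2.01 to 0.41 on 1. Apart from ANXA1, these 10 genes had at most 10 UMIs in any barcode.

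At the other end, L1TD1, an RNA-binding protein of pluripotent cells, was at 938 CPM against 1473 CPM in the remainder, a ratio of 0.637 (0.576 to 0.704). UGP2, which makes UDP-glucose, was at 585 against 963 CPM, a ratio of 0.607 (0.533 to 0.689). ZFP42 (REX1), a marker of pluripotent cells, was at 30.0 against 75.6 CPM (0.397, 0.210 to 0.687), and the long noncoding RNA LINC00678 at 39.3 against 98.1 CPM (0.400, 0.232 to 0.646). The poly(A) polymerase family gene TENT5B had the lowest ratio, 0.252 (0.0916 to 0.554), on 6 UMIs. After thinning, the log2 ratio of TENT5B was -0.05 in place of -1.99, on 3 UMIs, and that of AK4 -0.48 in place of -1.31. The adenylate kinase AK4, the peroxisomal lyase HACL1, the kinase NMRK2, the actin-linked PDLIM1 and TTLL12 had ratios of 0.402, 0.265, 0.274, 0.397 and 0.366, on 14 UMIs or fewer.

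**Figure D3:**
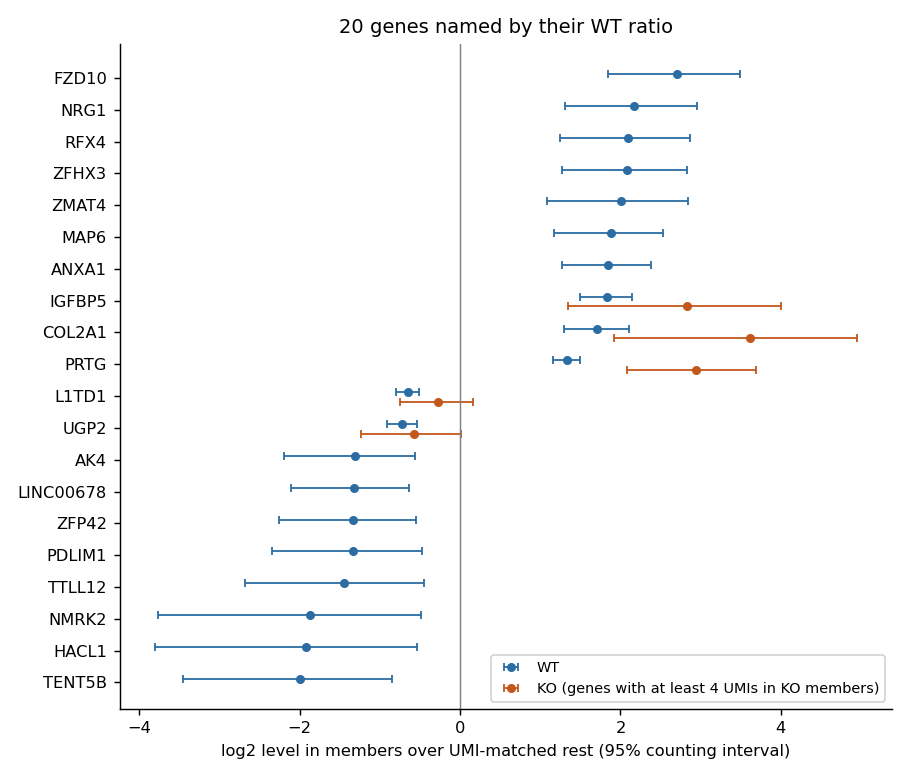
Log2 level in neural-factor barcodes over the UMI-matched remainder (horizontal axis) for the 10 genes highest and the 10 lowest in WT, ranked by the interval end nearest to no difference. Blue points are WT and orange points KO, shown only for genes with at least 4 UMIs in the KO barcodes, with counting intervals: PRTG, COL2A1 and IGFBP5 lie above 0 in both libraries.

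Of 27 measured genes of neural progenitors and adhesion, 12 were at least 1.5-fold higher and 0 lower in WT neural-factor barcodes, against 11.1% and 3.97% of all genes, and their median log2 ratio was 0.57 against 0.08 over all genes. Their summed level was 7965 CPM against 5467 CPM, 1.46-fold higher (1.41 to 1.51). PTN (pleiotrophin), a secreted heparin-binding factor, was at 1389 against 699 CPM, 1.99-fold higher (1.82 to 2.16). WLS, which carries WNT proteins to the surface, was at 185 against 77.7 CPM, 2.38-fold higher (1.86 to 3.01).

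The adhesion genes NCAM1, CADM1 and CDH2 (N-cadherin) were 2.97-fold (1.88 to 4.53), 2.13-fold (1.53 to 2.91) and 1.76-fold (1.35 to 2.28) higher. NES (nestin), an intermediate filament of progenitors, was 1.48-fold higher (1.25 to 1.74) and VIM (vimentin) 1.22-fold (1.12 to 1.33). SFRP1, a secreted WNT inhibitor at 754 against 724 CPM, had a ratio of 1.04 (0.927 to 1.16), and MSI1 and ROBO1 were at ratios of 0.798 and 0.865 with intervals that include 1.

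Of 22 measured neuronal genes, 7 were at least 1.5-fold higher and 0 lower, with a median log2 ratio of 0.30 and a summed ratio of 1.17 (1.13 to 1.21). NEFM was at 377 against 185 CPM, 2.04-fold higher (1.72 to 2.40), GAP43 1.85-fold (1.39 to 2.42), and DPYSL5, a growth cone protein, 1.77-fold (1.29 to 2.37). The tubulin gene TUBA1A was 1.57-fold higher (1.45 to 1.69), though reads of tubulin genes can be split between near-identical copies. The neuron-specific tubulin TUBB3 had a ratio of 1.11 (0.877 to 1.39) and BEX1 a ratio of 0.785 (0.622 to 0.979). Other neuronal genes had few UMIs in the 353 barcodes: INA, a neurofilament gene, had 12 (1.85-fold, 0.931 to 3.36). DCX and ELAVL3 had 4 each, at 9.25 CPM against 5.56 and 2.12 CPM in the remainder, and NEUROD1 had 1 and MAPT 0.

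Of 14 measured neural transcription factors outside the rule, 3 were at least 1.5-fold higher (RFX4, EMX2 at 2.41-fold, 1.40 to 3.92, and GBX2 at 2.22-fold, 1.33 to 3.53) and 0 lower, with a median log2 ratio of 0.15 and a summed ratio of 1.17 (1.09 to 1.26). EMX2 patterns the dorsal forebrain and GBX2 the anterior hindbrain. SOX11 was 1.33-fold higher (1.05 to 1.67) and ZIC2 had a ratio of 0.886 (0.670 to 1.15). PAX6 and SOX1, the usual markers of neuroectoderm, had 6 UMIs each in the 353 barcodes, and both were under the 20 CPM minimum.

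Of 23 measured pluripotency genes, 0 were at least 1.5-fold higher and 6 at least 1.5-fold lower, beside 11.1% and 3.97% of all genes. Their median log2 ratio was -0.36, and the summed level was 6158 against 7954 CPM, a ratio of 0.774 (0.744 to 0.805). POU5F1 was at 20.8 against 51.7 CPM (0.402, 0.182 to 0.774), on 9 UMIs and with pseudogene copies that can take its reads. The surface coreceptor TDGF1 had a ratio of 0.628 (0.453 to 0.850) and the glycoprotein CD24 one of 0.719 (0.656 to 0.787). Of the 23, 2 had ratios above 1. Several were near 1: SOX2 was at 340 against 333 CPM (1.02, 0.857 to 1.21), DNMT3B at a ratio of 0.989, SALL4 at 0.953, LIN28A at 0.950 and LIN28B at 1.11, each with an interval that includes 1. NANOG had 10 UMIs.

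Genes of the epithelial junction were lower together with the pluripotency genes, with a summed ratio of 0.694 (0.619 to 0.776). Of 10 measured, 3 were at least 1.5-fold lower and 0 higher, beside 3.97% and 11.1% of all genes. ESRP1, an epithelial splicing regulator, had a ratio of 0.469 (0.200 to 0.939), the tight junction claudin CLDN6 0.590 (0.357 to 0.922) and EPCAM 0.692 (0.483 to 0.963), while CDH1 (E-cadherin) had 8 UMIs (0.628, 0.267 to 1.26). Of 15 measured mesenchymal and matrix genes, 8 were at least 1.5-fold higher and 0 lower, beside the same 11.1% and 3.97%. Their median log2 ratio was 0.65, while the summed level of the list was only 1.27-fold higher (1.18 to 1.37). ZEB2, a repressor of E-cadherin, was 1.93-fold higher (1.18 to 3.01), the collagen gene COL6A1 1.86-fold (1.12 to 2.93) and fibronectin, FN1, 2.01-fold (1.01 to 3.66). FN1 and CCN2, at 13.8 and 16.5 CPM in the remainder, reached the 20 CPM minimum only through the neural-factor barcodes. TWIST1 and SNAI1 had 0 UMIs.

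The remaining lists held lineages and states that could also be in the culture. Neural crest and placode genes had 51 UMIs in all, 1.85-fold higher (1.35 to 2.47), led by MSX2 with 11 UMIs and PAX3 with 9. Primitive streak and mesendoderm genes had 31 UMIs (ratio 0.787, 0.531 to 1.13) and amnion and trophoblast genes 7. Retinoid genes were 1.26-fold higher in sum (1.07 to 1.47), with CYP26A1, a target gene of retinoic acid, at 0 UMIs. WNT receptors and targets were 1.17-fold higher in sum (1.06 to 1.29), FZD3 1.60-fold (1.29 to 1.96), and TCF7L1, a repressor of WNT targets, had a ratio of 0.577 (0.397 to 0.813).

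Genes of the G2 and M phases were 1.16-fold higher in sum (1.12 to 1.20), beside 1.17-fold for the neuronal genes, and those of S phase 1.03-fold (0.987 to 1.07), which turned to a log2 ratio of -0.04 when scaled by the median ratio. Heat shock and early stress genes had a ratio of 0.942 (0.912 to 0.972), ribosomal protein genes 0.913 and mitochondrially encoded genes 1.09. What part depth, RNA quality or the cell cycle has in the other ratios was not tested.

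**Figure D4:**
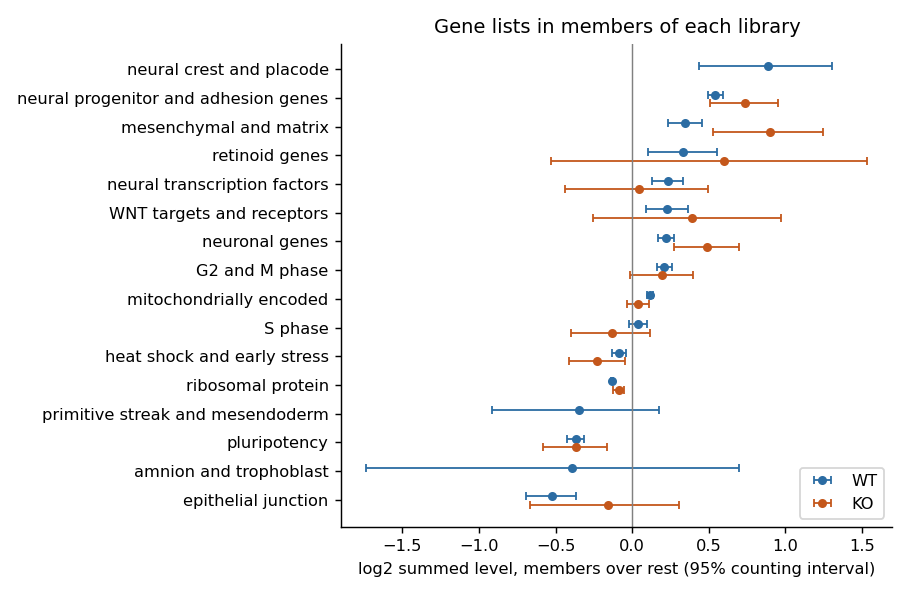
Log2 summed level of each gene list in neural-factor barcodes over the UMI-matched remainder (horizontal axis) with counting intervals, in WT (blue) and KO (orange, where the list had over 3 UMIs). Neural progenitor and adhesion genes lie above 0 and pluripotency genes below 0 in both libraries, at ratios of 1.46 and 0.774 in WT.

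Some of these differences were larger in WT barcodes with more marker UMIs, each range matched on depth to barcodes with 0 marker UMIs. Progenitor and adhesion genes were 1.18-fold higher (1.16 to 1.21) in 2010 barcodes with 1 marker UMI, which are outside the rule, 1.46-fold (1.40 to 1.52) in 281 with 2, 1.65-fold (1.51 to 1.80) in 50 with 3 and 1.81-fold (1.64 to 2.01) in 22 with 4 or more. The pluripotency genes were at ratios of 0.907, 0.806, 0.686 and 0.509 in the same order. PRTG went from 1.5-fold to 4.28-fold (2.99 to 6.0), and L1TD1 went from 0.888 to 0.331 (0.213 to 0.490).

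SOX2 had ratios of 1.09, 1.00, 1.13 and 1.19 over the same ranges, with intervals that overlap. Other members gave no steady order: IGFBP5 was at 1.55, 3.77, 7.18 and 5.88, epithelial junction genes at 0.949, 0.739, 0.483 and 0.559, and ZFP42 at 0.788, 0.350, 0.418 and 0.420. Genes of the G2 and M phases went from 1.04 to 1.25 (1.13 to 1.38) over the same ranges and ribosomal protein genes from 0.957 to 0.872, and their part in the other ratios was not tested. Neuronal genes were at 1.57-fold in barcodes with 4 or more marker UMIs, and at 1.28-fold (1.14 to 1.44) without the 3 STMN2-rich barcodes, whose removal left PRTG at 4.46-fold and the pluripotency genes at 0.537. The ranges of 3 and of 4 or more hold few barcodes, and the order is a description of this library.

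**Figure D5:**
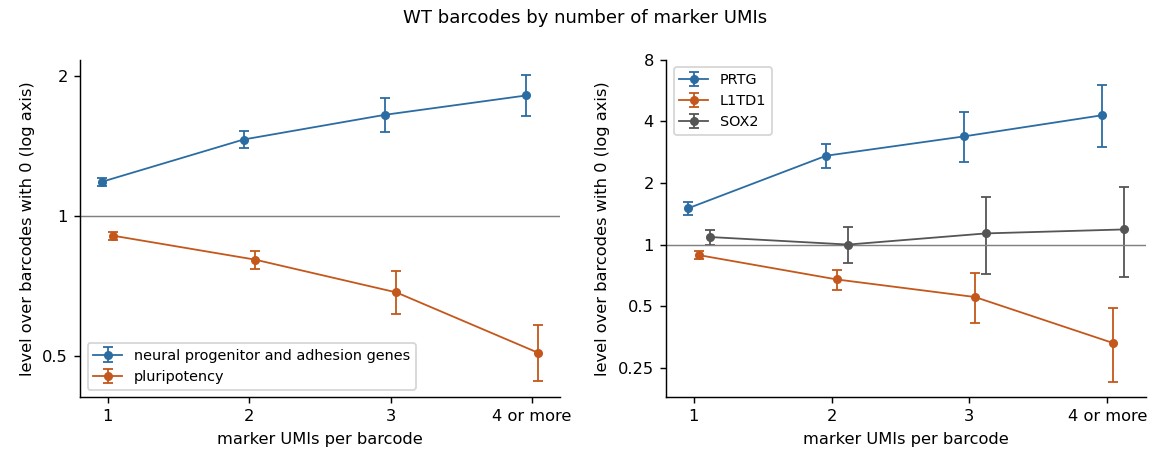
Level in WT barcodes with 1, 2, 3 and 4 or more marker UMIs (horizontal axis) over UMI-matched barcodes with 0 marker UMIs (vertical axis, log scale), for 2 gene lists (left) and 3 genes (right), with counting intervals. PRTG climbs to 4.28-fold and L1TD1 drops to 0.331, while SOX2 stays between 1.00 and 1.19.

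Barcodes chosen through different markers differed in these lists. A split made after the values were seen set 66 WT barcodes that had only STMN2 or ONECUT2 UMIs, apart from MEIS2 and DACH1, beside 206 that had only POU3F2, NR2F1 or NR2F2. The 206 were higher in progenitor and adhesion genes (1.56-fold over the remainder, 1.5 to 1.63) than the 66 (1.16-fold, 1.07 to 1.27), and lower in pluripotency genes, at ratios of 0.730 (0.693 to 0.769) and 0.903 (0.833 to 0.976). Mesenchymal and matrix genes were 1.45-fold higher (1.32 to 1.59) in the 206 and at a ratio of 0.904 (0.738 to 1.1) in the 66.

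PRTG was at 945 CPM in the 206 and 415 CPM in the 66, and L1TD1 at 763 and 1359 CPM. COL2A1 had 48 UMIs in the 206 and 3 in the 66, 191 and 34.6 CPM. The peptide-processing enzyme CPE had 38 and 2 UMIs, the cardiac actin ACTC1 58 (19 of them in 1 barcode) and 4, and the ephrin receptor EPHA7 23 and 0. For EPHA7 the interval of the ratio of the 66 over the 206 reached 0.504. POU5F1 had 1 UMI in the 206 and 4 in the 66. The 24 barcodes with only MEIS2 or DACH1 stood near the 206 in progenitor genes (1.5-fold, 1.32 to 1.70) and pluripotency genes (0.701, 0.603 to 0.809).

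The 66 were higher in neuronal genes, 1.37-fold over the remainder (1.28 to 1.48), than the 206 at 1.15-fold (1.1 to 1.21), but 1.22-fold (1.12 to 1.32) without the 3 STMN2-rich barcodes. GAP43 was 2.17-fold higher in the 66 than in the 206 (1.17 to 3.97), but 8 of its 21 UMIs in the 66 were in the 3 STMN2-rich barcodes. Without them it was 2.23-fold over the remainder (1.18 to 3.87), against 1.48-fold (0.972 to 2.16) in the 206. SST had 10 UMIs in the 66, 8 of them in 1 barcode, and 0 in the 206. The 57 barcodes with markers of both kinds had neuronal genes at a ratio of 1.02 (0.923 to 1.13) and progenitor genes at 1.41-fold (1.28 to 1.54).

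The 30 WT barcodes left out for their CRABP1 had a different makeup. Against the 353, they were 2.10-fold higher in neuronal genes (1.92 to 2.30), 7.92-fold in NEFM (6.16 to 10.2) and 2.11-fold in PRTG (1.58 to 2.77). Progenitor and adhesion genes differed by less than counting error (1.04-fold, 0.924 to 1.17), and mesenchymal and matrix genes were at a ratio of 0.543 (0.373 to 0.766).

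The 27 KO neural-factor barcodes held 27641 UMIs, so 1 UMI of a gene is 36.2 CPM. Averaged with the remainder, ZDHHC11B passed the 20 CPM minimum on 2 UMIs and RTN1 on 1 UMI, at 20.7 CPM. GBX2, also with 1 UMI, fell short, at 18.5 CPM. RTN1 was at 5.22 CPM in the remainder, so 1 UMI was enough to count a gene as at least 1.5-fold higher. Of 5961 genes measured, 46.7% were at least 1.5-fold higher and 16.5% at least 1.5-fold lower, and the median log2 ratio of all genes was 0.48. Of the 10 WT genes named as highest by the lower end of their interval, 7 had a UMI in the KO barcodes and all 7 had ratios above 1, though at this depth a single UMI is enough for that and 4 of them had 1 or 2. PRTG was at 543 CPM against 70.5 CPM in the KO remainder, 7.70-fold higher (4.25 to 13.0), on 15 UMIs in 6 barcodes, 7 of them in the deepest barcode, and 4.94-fold (2.11 to 9.84) without that barcode. COL2A1 was 12.2-fold higher (3.78 to 31.0) on 5 UMIs and IGFBP5 7.12-fold (2.55 to 16.1) on 6, and IGFBP5 without the deepest barcode had 3 UMIs (4.35-fold, 0.886 to 13.0).

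In the 409 KO barcodes with 1 marker UMI, which are outside the rule, the same 3 genes were higher than in KO barcodes with 0: PRTG 2.34-fold (1.76 to 3.05), COL2A1 2.99-fold (1.59 to 5.20) and IGFBP5 2.43-fold (1.55 to 3.66). The progenitor and adhesion genes were 1.66-fold higher in the 27 KO barcodes (1.42 to 1.93), and 1.44-fold (1.21 to 1.71) without the deepest. Of 21 measured, 16 were at least 1.5-fold higher and 2 lower, beside 46.7% and 16.5% of all KO genes. Such counts include genes like SOX9, with 2 UMIs and 6.68 CPM in the remainder. It reached the 20 CPM minimum only through the KO neural-factor barcodes. Of 21 measured pluripotency genes, 8 were at least 1.5-fold lower and 1 higher, beside the same 16.5% and 46.7%. Their list was at a summed ratio of 0.774 (0.667 to 0.894), and L1TD1 at 1556 against 1882 CPM (0.827, 0.598 to 1.11). The 9 KO barcodes with STMN2 went the other way, with pluripotency genes at 1.28 (1.02 to 1.59) and L1TD1 at 1.87 (1.22 to 2.74). Barcodes with each other marker had pluripotency ratios from 0.400 (POU3F2, 2 barcodes) to 0.875 (ONECUT2, 3 barcodes). Neuronal genes were 1.40-fold higher (1.21 to 1.62), with 13 of 23 at least 1.5-fold higher and 3 lower, beside 46.7% and 16.5% of all KO genes.

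Mesenchymal and matrix genes were 1.86-fold higher in the KO barcodes (1.44 to 2.37), with 14 of their 67 UMIs in 1 barcode and 1.51-fold (1.13 to 1.99) without it. Epithelial genes had a ratio of 0.895 (0.629 to 1.23). Neural crest, primitive streak and amnion lists had 0 UMIs, with intervals of the ratio reaching 4.26, 2.02 and 7.83. The 10 KO genes named as highest by the same rule rested on at most 5 UMIs each and 8 of them on 2, among them POU3F3, a POU factor close to POU3F2, with 2 UMIs in 1 barcode. POU3F3 was also 4.32-fold higher (1.76 to 9.21) in WT, on 8 UMIs and at an average of 11.4 CPM, under the 20 CPM minimum. Of these 10 genes, 8 had a UMI in the WT barcodes and 7 had ratios above 1 there. Only POU3F3 had a WT interval that excluded 1.

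The genes lowest in the KO barcodes were as sparse: POLR1D, PSMA5, TRIM71, ELOC and SNRNP25 had 0 UMIs, with an interval of the POLR1D ratio reaching 0.656. The translation factor EIF5A had 7 UMIs (0.408, 0.164 to 0.842) and the ribosomal protein gene RPS26 36 (0.610, 0.427 to 0.846). RBM3, RPL23A and SNRPGP10 had 1 or 2 UMIs, the last pair with copies that share reads. In WT, RBM3 had a ratio of 0.990 (0.833 to 1.17) and TRIM71 0.913 (0.726 to 1.14).

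Set directly beside each other, the KO and WT neural-factor barcodes differed at least 1.5-fold in 38.8% of 6195 genes upwards in KO and 21.4% downwards, again on the few UMIs of 27 barcodes. The markers' own levels come from the rule and are a description: POU3F2 was at 145 CPM in KO, on 4 UMIs with 3 in 1 barcode, and 414 CPM in WT, and NR2F1 was at 687 and 451 CPM. WLS had 0 UMIs in KO and 80 in WT, with an interval of the ratio reaching 0.739. The remaining barcodes of the 2 libraries also differed in WLS, 10.4 CPM in KO and 77.7 CPM in WT. TAF9B, a subunit shared by transcription initiation and coactivator complexes, had 0 and 20 UMIs, too few for a fold, with 1.63 and 38.2 CPM in the remainders.

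PRTG was at 543 CPM in KO and 786 CPM in WT neural-factor barcodes (0.691, 0.382 to 1.16), while in the remainders it was at 70.5 and 312 CPM. IGFBP5 was at 217 CPM in each, and in the remainders at 30.5 and 61.2 CPM. The cytoskeletal genes TUBB2A (0.193, 0.0232 to 0.709) and TUBA1B (0.596, 0.421 to 0.820) and the signalling gene GNAS (0.442, 0.246 to 0.736) were lower in KO. They were also lower in the KO remainder: TUBB2A was at 168 CPM in KO and 444 CPM in WT, TUBA1B at 1541 and 2153 CPM and GNAS at 893 and 1137 CPM. RAVER1, an RNA-binding protein gene, was 20.9-fold higher (6.35 to 73.0) on 8 UMIs against 6, and was also higher in the KO remainder, at 82.6 against 29.6 CPM.

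Among the lists, epithelial genes were 1.78-fold higher in the KO than in the WT neural-factor barcodes (1.23 to 2.51). Mesenchymal and matrix genes were 1.43-fold higher (1.09 to 1.83), while progenitor and adhesion genes were at a ratio of 0.781 (0.666 to 0.911). Of the 67 UMIs of mesenchymal and matrix genes in KO, 14 were in 1 barcode. The ratio to WT without that barcode was not computed. The remaining barcodes of the 2 libraries also differed, with epithelial genes at 1496 CPM in KO and 1082 CPM in WT and progenitor and adhesion genes at 3739 and 5467 CPM, while mesenchymal and matrix genes were at 1301 and 1335 CPM. Pluripotency genes, at 1.09 (0.937 to 1.27), and neuronal genes, at 0.922 (0.791 to 1.07), differed by less than counting error. Differences between the cultures and between the genotypes cannot be told apart with 1 library each.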

How the data were processed

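For 1 WT and 1 KO library, the deposited tables hold whole-number UMI counts for each gene in each barcode, not normalized; gene symbols and barcodes came in companion files of other, non-numeric content. Alignment and counting tools listed in the submitters' processing notes are STAR 2.7.10a, Subread, featureCounts 2.0.1 and UMI-tools 1.1.2, with build hg38. Which annotation was used, and whether barcodes were filtered, is not given in the sources used here. The KO table held 15 entries beyond those its size line counts, and none was dropped.

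Barcodes with at least 500 UMIs were read, and the rule was applied as stated. The remaining barcodes were weighted to the neural-factor barcodes' counts in bins of 0.05 log10 UMIs, with 1 open bin from 4000. Summed UMIs were scaled to CPM. Ratios have conditional binomial intervals in which a weighted sum counts as its effective number of UMIs, shares have exact Clopper-Pearson intervals, and both cover counting error only, since cells of 1 library are not replicates. No doublet caller was run, and an alternative left out barcodes over 3 times the median UMI count. Python 3.11.15, NumPy 2.4.6, SciPy 1.17.1 and pandas 2.3.3 were used, and the functions were tested on simulated data. Gene coordinates were taken from RefSeq (GRCh38.p14).

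The neural-factor rule and the 14 lists with 415 entries were chosen with earlier results of these data known. A gene counted as measured at 20 CPM or more, averaged over the compared groups. Genes were named if they were markers, CRABP1 or ZNF263, if they were among the 10 highest or 10 lowest of a comparison by the interval end nearest to 1, or if they were among the 4 largest ratios of a list at 10 CPM or more. Mitochondrially encoded, X-inactivation and Y-linked genes were left out of rankings. Other list genes were named after their values were seen, as examples on either side. Alternatives changed 1 choice at a time.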

Additional observations from a re-analysis of the deposited data

How the results depend on the processing

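The share of barcodes that met the rule moved with several choices of depth or marker number. In WT it was 5.35% at a minimum of 1000 UMIs, 0.929% at 250, 0.438% (72 barcodes) with 3 marker UMIs, 1.91% without barcodes over 3 times the median depth and 0.859% after thinning. In KO it was 0.0353% (5 barcodes) with 3 marker UMIs, 0.106% after thinning and 0.0759% at 250 UMIs, while 0.262% (6 barcodes) at 1000 UMIs and 0.174% without deep barcodes stayed inside the counting interval. Among counts of genes past 1.5-fold, the WT numbers of 679 higher and 242 lower became 1067 and 375 at 1000 UMIs, 1693 and 832 with 3 marker UMIs, 1702 and 1047 after thinning, 152 and 47 at 50 CPM and 4085 and 1404 with no minimum level. The number lower was also 368 without the deep barcodes, 487 with 1 nearest barcode per member and 464 when scaled without mitochondrially encoded and ribosomal protein genes. In KO, 2786 higher and 983 lower became 1078 and 507 at 50 CPM. The number higher was 1733 with 1 nearest barcode, and the number lower 1770 with 3 marker UMIs, 1634 after thinning and 577 with no minimum level. Between KO and WT, 2403 higher and 1326 lower became 1004 and 675 at 50 CPM.

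The log2 of the summed level of WT progenitor and adhesion genes, 0.54, stayed above 0 under each alternative tried: it was 0.44 with no matching, 0.47 with median scaling, 0.48 at 250 UMIs and 0.49 with exactly 2 marker UMIs. In KO, 0.73 became 1.104 with 1 nearest barcode. That of WT pluripotency genes, -0.37, was -0.44 with median scaling and -0.28 with exactly 2 marker UMIs. The other alternatives computed for these 2 lists, and the summed ratios of left-out markers, stayed inside the counting interval. Of 276 values of the genes named in WT, 254 stayed inside their interval, 21 moved and 1, COL2A1 after thinning (-0.96), turned. Named genes with 0 UMIs in the KO barcodes have no log2 value and no alternative. The alternatives with 250 UMIs, exactly 2 marker UMIs and without single deep or STMN2-rich barcodes were chosen after seeing the data.

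No paired analysis was possible because each genotype has 1 library. Depth limits these values: at 20 CPM a gene has about 8.65 UMIs in 353 barcodes and 0.553 in 27. Neither doublets nor free RNA were removed, and their part in the ratios was not tested.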
